A study of Bos taurus with 4 samples.

Results

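Of the piRNA cluster loci in these bovine oocyte libraries, the one with the most reads in each library lay on chromosome 6, at chr6:110174004-110336024 in the coordinates of the deposited cluster names, an interval of 162021 bp. Its members were chosen by name: every listed sequence that carried a piRNA cluster name within this interval belonged to it, with or without a mismatch note. This gave 709455 of the 2468643 distinct sequences in the series. The series holds 4 small RNA libraries from cattle oocytes at the germinal vesicle (GV) stage, the arrested stage before meiosis resumes. Input libraries, 2 in number, were made from oocyte RNA with no antibody. The other libraries, also 2, were made from RNA recovered with an antibody to TDRKH (anti-Tdrkh) and are called TDRKH IP below. No library from a control antibody was analysed here, and the labels used here do not give the number of oocytes or animals per library or say whether the replicates came from separate collections. P-values therefore measure only the spread between these libraries, which may be technical.

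PIWI-interacting RNAs (piRNAs) are small RNAs of the germ line that guide PIWI proteins to complementary transcripts, many of them from transposons. Most are cut from long single-stranded precursors transcribed from genomic clusters, typically begin with uridine, and carry a 2′-O-methyl group at a 3′ end that is trimmed after loading. TDRKH is a Tudor and KH domain protein of the mitochondrial surface that holds PIWI proteins while piRNA 3′ ends are trimmed. PIWIL3 is a PIWI protein of mammalian oocytes that mice lack.

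Most of the cluster's reads came from a small set of 5′ ends, and the most abundant sequences show its usual form: a T at the first base (U in the RNA) and a length near 25 nt. The sequences below were the 5 most abundant in either group, which overlap, so that 7 are listed. Capitals mark the first 18 bases, which define a 5′ family below.
P1: TCCTTTAGGACTGACAGGtgtgatc
P2: TCCTTTAGGACTGACAGGtgtgatct
P3: TGTTCTGGACTAGGCTTTggcttaagg
P4: TTCAACTTTCAGGGATCCaatatgtt
P5: TTCTTGGGATGAAGATTGacctttt
P6: TCAGTCTTATTGTGGCTCctttgctt
P7: TCACTGGAGTAGCACTTTcgtttcc

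P1 and P2 share a 5′ end and differ by 1 base at the 3′ end. All 7 were named for this cluster alone. P1 stood at 2218 and 2504 reads per 1000000 listed reads (RPM) in the inputs and at 2157 and 2026 RPM in the TDRKH IPs. P3 stood at 2319 and 2016 RPM in the inputs and at 1990 and 1837 RPM in the IPs. P6 stood at 1837 and 1999 RPM against 2130 and 1898 RPM. For P6 the groups overlapped, and for P1 and P3 the IP values lay just below the inputs. In edgeR's quasi-likelihood test with Benjamini-Hochberg adjustment the log2 changes of P1, P3 and P6 were -0.17 ± 0.20 (SE), -0.18 ± 0.20 and 0.07 ± 0.20, with adjusted p of 0.445, 0.436 and 0.766. P2, at 2221 and 2459 RPM in the inputs and 1986 and 1807 RPM in the IPs, also missed the threshold (log2 change -0.30 ± 0.20, edgeR adjusted p = 0.186). With TMM factors, which moved the median log2 change over all tested sequences from 0.70 to 0.02, P1, P2, P3 and P6 were all called lower.

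P4 and P5 fell in the TDRKH IP. P4 stood at 2305 and 1933 RPM in the inputs and at 1253 and 1237 RPM in the IPs, a log2 change of -0.77 ± 0.21 (edgeR adjusted p = 0.00250). P5 stood at 1790 and 2297 RPM against 1269 and 1436 RPM, a log2 change of -0.60 ± 0.21 (edgeR adjusted p = 0.0162). For both, every IP value lay below every input value. Leaving out either IP library ended both calls: adjusted p was then 0.0740 and 0.0811 for P4 and 0.229 and 0.112 for P5. P7 was the one of the 7 with a higher mean in the IP beyond 1 SE, at 1153 and 1451 RPM against 1749 and 1777 RPM, and it missed the threshold (log2 change 0.44 ± 0.21, edgeR adjusted p = 0.0674) and stood at -0.24 with TMM factors. Without the second input it was called higher (0.61, edgeR adjusted p = 0.00653).

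The cluster supplied nearly the same share of all 4 libraries. The deposited tables listed 1079364 and 1354003 reads in the inputs and 11138905 and 11060320 in the IPs, and piRNA cluster names covered 88.8% and 87.8% of input reads and 96.9% and 96.8% of IP reads. A read whose sequence was named for several separate loci was shared equally among them. On this count the chromosome 6 cluster held 30.8% and 30.1% of listed reads in the inputs and 32.3% and 32.6% in the IPs. The locus with the next highest share, on chromosome 17, held 15.1% and 15.0% in the inputs and 14.6% and 14.5% in the IPs. For the chromosome 6 cluster the change was an increase of 0.09 ± 0.01 (SE) on the log2 scale, or 1.07-fold (edgeR adjusted p = 0.000404). Of the 935 loci tested, 66.2% were higher in the IP, and the median locus rose by 0.36, more than this cluster did. With single-locus sequences alone 138 of 887 loci were higher and the median was 0.13, near the cluster's 0.09. The direction therefore depended on the scale. With piRNA cluster reads as the library size the change was -0.04 (adjusted p = 0.0225), and with TMM factors, which centre the loci, it was -0.27 (edgeR adjusted p = 0.0152).

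MicroRNAs listed as markers of follicle cells were almost absent from the IP, and so was a liver microRNA. Of the 5 microRNAs listed as cumulus and granulosa cell markers, 4 were detected, and all 4 were lower in both IPs than in both inputs. Of these, miR-21 stood at 199 and 227 RPM in the inputs and at 0.988 and 2.26 RPM in the IPs. In both IPs miR-132 was at 0, and miR-212 was at 0 in all 4 libraries. The liver microRNA miR-122 stood at 435 and 335 RPM in the inputs and 1.71 and 2.35 RPM in the IPs. All sum to well under 1% of the listed reads, and their part in the cluster's results was not tested. Reads of microRNAs as a class were not compared here.

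The reads began with T in 88.2% and 88.7% of cases in the inputs and 89.1% and 88.3% in the IPs, so the groups overlapped. An A at position 10, the base that faces a first U across a 10-base overlap, stood in 35.8% and 35.1% of input reads and 35.6% and 34.8% of IP reads, again with overlap. With 2 libraries against 2, an exact two-sided permutation test cannot go below p = 0.333, and for these 2 shares it gave p = 0.667. A first G, the rarest start in the inputs, was at 3.08% and 3.03% there and at 3.67% and 3.94% in the IPs.

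Against reads of all other piRNA clusters in the same libraries, this cluster had less A at position 10 and, on all reads, slightly more first T. For first T the difference, this cluster minus the others, was 0.968 ± 0.179 percentage points (SD over 4 libraries). It was 0.0127 points (exact sign-flip p = 1.0) once the 10 most abundant cluster sequences of each library were left out, and it turned to -2.96 points with distinct sequences counted once. For A at position 10 it was -7.40 ± 1.14 points: the other clusters had 41.9% in each input and 43.8% and 43.4% in the IPs. Each difference had 1 sign in 4 of 4 libraries, and the exact sign-flip test over 4 libraries gave its smallest possible p, 0.125.

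Read length peaked at 25 and 26 nt in every library. Reads of 25 nt made up 26.2% and 25.3% of the cluster's reads in the inputs and 23.3% and 23.1% in the IPs, and reads of 26 nt fell from a mean of 23.4% ± 0.520 (SD, n = 2) to 21.7% ± 0.376. The IPs held more at both ends of the distribution. The class of 18 to 22 nt took 8.78% and 9.35% of input reads and 11.2% and 12.1% of IP reads, and the class of 28 to 36 nt took 9.85% and 10.3% against 11.2% and 10.9%. In between, 23 to 27 nt fell from 80.9% ± 0.721 (SD, n = 2) to 77.3% ± 0.404. The groups did not overlap in any of the 3 classes (exact permutation p = 0.333, the smallest possible).

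Tested one length at a time, 10 of the cluster's 19 read lengths rose and 2 fell in RPM. Over the 57 lengths tested by origin, 38.6% rose and 38.6% fell. The lengths that rose were 18 to 24 nt and 27 to 29 nt. Among them 20 nt rose most, from 4580 and 4685 RPM to 6603 and 7320 RPM (log2 change 0.59 ± 0.09, edgeR adjusted p = 2.03e-09). Reads of 18 nt rose by 0.55 ± 0.13 and of 19 nt by 0.53 ± 0.10 on the same scale. The gain then shrank with each base to 0.13 ± 0.04 at 24 nt, and 25 and 26 nt did not pass the test (-0.06 ± 0.04 and -0.02 ± 0.04). On the long side 28 nt rose by 0.33 ± 0.05, from 14951 and 15650 RPM to 19286 and 19170 RPM. The lengths that fell were 34 nt (-0.70 ± 0.19) and 35 nt (-0.62 ± 0.20), which together hold under 0.4% of the cluster's reads. With the cluster's own reads as the library size, 6 lengths rose and 4 fell, now with 25 and 26 nt among the latter, and without either IP library no length fell. Each length from 18 to 22 nt passed as higher under all 10 alternatives run, while 24 and 27 nt turned below 0 (-0.00707 and -0.0353) with all piRNA cluster reads as the library size, and 24, 27 and 29 nt did so (-0.26, -0.18 and -0.02) with distinct sequences counted once.

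The cluster's reads were slightly longer than those of other clusters. Mean length was 25.3 nt in both inputs and 25.2 and 25.1 nt in the IPs, 0.118 ± 0.0290 nt (SD over 4 libraries) above the other clusters, and the share of 18 to 22 nt differed by -2.53 ± 0.264 points. Both differences had 1 sign in 4 of 4 libraries (exact sign-flip p = 0.125, the smallest possible). With distinct sequences counted once they were 0.0602 nt and -0.23 points (exact sign-flip p = 0.25 and 0.75).

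Grouping sequences by their first 18 bases gave 201143 5′ families whose reads lay mostly in the cluster. The 10 most abundant held 16.3% of the families' RPM, the first 100 held 47.9% and the first 1000 held 68.3%. The largest family, that of P1, stood at 8834 and 9200 RPM in the inputs and at 8398 and 7972 RPM in the IPs, and P1 alone made up 25.1% to 27.2% of it in each library. This family did not pass the test (log2 change -0.14 ± 0.14, edgeR adjusted p = 0.401), but was called lower with TMM factors. The families of P7 and P3 missed it as well: P7's stood at 5753 and 7018 RPM against 7113 and 7654 RPM (log2 change 0.21 ± 0.15, edgeR adjusted p = 0.234), and P3's at 6280 and 6233 RPM against 7492 and 7112 RPM (0.22 ± 0.15, adjusted p = 0.186). With TMM factors these stood at -0.31 and -0.30, and without the second input P7's family was called higher (0.36, edgeR adjusted p = 0.0309).

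The remaining 2 of the 5 most abundant families are near relatives that differ at several bases in their first 18, and their most abundant forms were each named for more than 10 cluster loci. They are shown because they are repeated sequences, unlike P1 to P7. The RPM of a family, here and above, counts every read in full, whatever its number of loci. Shared equally, only 1 in 12 reads of the R1 form and 1 in 62 of the R2 form would count for this cluster.
R1: TCTTTGCGACCCTGTGGActgtagca
R2: TCTTTGTGACCCCATGGActgtagca

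The family of R1 stood at 6794 and 7999 RPM in the inputs and at 10053 and 9351 RPM in the IPs, and that of R2 at 4909 and 6690 RPM against 8734 and 8124 RPM. Both passed the test, with log2 changes of 0.39 ± 0.15 for R1 (edgeR adjusted p = 0.0291) and 0.54 ± 0.16 for R2 (edgeR adjusted p = 0.00710). The call for R1 was lost without either IP library (adjusted p = 0.209 and 0.0955) or without the first input (0.0763), and that for R2 without the first IP library (0.0636). Under TMM factors R1 turned to -0.12 and R2 stood at 0.03.

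Within a family the members differ at the 3′ end. A family with its most abundant form at 25 nt is shown because its shortest form was called higher and a long form was nearly absent from the IPs. Capitals mark the shared 18 bases.
18 nt: TGGGCAAATGTATGAACT
22 nt: TGGGCAAATGTATGAACTtctt
25 nt: TGGGCAAATGTATGAACTtcttctg
27 nt: TGGGCAAATGTATGAACTtcttctgca
30 nt: TGGGCAAATGTATGAACTtcttctgcagtc

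The 18-nt form stood at 25.01 and 20.68 RPM in the inputs and at 62.5 and 80.5 RPM in the IPs, and the 22-nt form at 71.3 and 84.9 RPM against 151 and 218 RPM (log2 changes 1.65 ± 0.32 and 1.23 ± 0.27, edgeR adjusted p = 6.60e-05 and 0.000265). The 25-nt form stood at 912 and 731 RPM against 816 and 880 RPM, and the 27-nt form at 788 and 751 RPM against 694 and 732 RPM. Neither of these passed the test, though with TMM factors both were called lower (-0.65 and -0.80) while the 18-nt form was still called higher (0.97). The 22-nt form lost its call with TMM factors (0.55, edgeR adjusted p = 0.0910). The 30-nt form stood at 33.4 and 27.3 RPM in the inputs and at 0.898 and 0.452 RPM in the IPs. It is the 27-nt form with 3 more bases.

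Over families, a shorter mean length in the IP was more frequent than a longer one, in this cluster as in the others. Of 1820 families of the cluster with at least 20 reads in every library, 595 had a lower mean length in both IPs than in both inputs and 248 had a higher one. Over the 3800 families of all piRNA clusters the shares were 34.6% lower and 13.1% higher, and in this cluster they were 32.7% and 13.6%. The median difference between IP and input was -0.0791 nt in the cluster. Among its 345 families with at least 100 reads in every library, 177 were shorter and 33 longer, or 51.3% and 9.57%. Over the 788 such families of all piRNA clusters the shares were 53.4% and 8.25%.

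The last base was compared with the base that the rest of the family carries at that position. It differed in 7.67% and 7.38% of input reads and in 8.25% and 8.63% of IP reads for which it could be read. An A accounted for most of this: 5.55% and 5.66% of input reads and 7.13% and 7.41% of IP reads ended in an A that the family does not have there. A foreign C, in contrast, was at 0.819% and 0.572% in the inputs and 0.181% and 0.213% in the IPs, and a foreign G at 0.550% and 0.413% against 0.176% and 0.189%. For each of these 3 bases the groups did not overlap, A being higher in the IPs and C and G lower (exact permutation p = 0.333, the smallest possible).

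Of the shares compared, that of reads with a mismatch note differed most between the groups. These notes mark reads that differ from the cluster's reference sequence, and they stood on 41.1% and 32.3% of the cluster's input reads but on 12.5% and 12.7% of its IP reads. Among reads of all other piRNA clusters the share was higher in each library and fell too. It stood there at 53.4% and 46.4% in the inputs and 32.63% and 32.65% in the IPs. Reads with an uncalled base (N) were also more frequent in the inputs, at 0.303% and 0.198% against 0.0338% and 0.0359%. Among reads with a single noted substitution, T-to-C was the most frequent in the inputs, at 8.28% and 6.06% of single-locus reads, and stood at 1.16% and 1.27% in the IPs. A-to-G went from 5.81% and 4.65% to 1.28% and 1.40%, and C-to-A from 5.92% and 4.19% to 1.23% and 1.30%. At each of read positions 1 to 18 both inputs lay above both IPs, by 2.58 to 5.07 times in the means. Near the 3′ end this did not hold: at position 26 the inputs stood at 0.433% and 0.499% and the IPs at 0.553% and 0.566%, and position 27 was also higher in both IPs. The part of these reads in the results on sequences and families was not tested beyond the fit without them given below.

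A difference of this direction, of varied size, stood around each of P1 to P7. All reads 1 substitution away from P1 summed to 81.9% and 57.5% of P1's own reads in the inputs and to 16.7% and 20.8% in the IPs, with all 75 possible forms seen. Around P7 the sums were 70.1% and 41.7% against 13.7% and 16.5%. These were the largest ratios of input to IP among the 7. The others were smaller. Around P4 the sums were 90.1% and 66.1% against 51.2% and 56.1%, and around P5 79.4% and 71.6% against 41.6% and 60.0%. Around P3 they were 22.2% and 15.4% against 12.1% and 12.4%. For P3 only 24 of the 81 possible forms were seen, and for each of the others all were, so its sums are not comparable in level. In all 7 both inputs lay above both IPs.

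Of the cluster's 709455 sequences, 5018 reached 10 RPM in at least 2 libraries and were tested, 2158 of them higher in the IP and 957 lower. Over all 11786 sequences tested, 41.9% were higher and 19.9% lower, so the cluster's 43.0% and 19.1% lay near the background. The median change was 0.71 for the members and 0.70 over all sequences, and TMM factors moved the median over all to 0.02 and the members' split to 281 higher and 1119 lower. DESeq2 with its own size factors gave 86 higher and 1071 lower. Over all 11786 sequences the split was 667 higher and 2727 lower with TMM factors and 198 and 2615 with DESeq2. Of the 957 lower sequences, 878 carried a mismatch note in every name for this cluster and 935 lay 1 substitution away from a sequence with at least 10 times their reads. Of the 2158 higher sequences, 462 carried a note and 64 had such a more abundant relative, and of all 5018 tested members 1790 and 1157 did. No such count over all 11786 sequences is given here. To find relatives, reads were pooled over all 4 libraries, and most came from the IPs. A sequence low in the IPs thus met the 10-fold rule more readily, so these counts of relatives follow in part from the rule. The filter let 1025 members in through the IPs alone and 871 through the inputs alone, and those had to differ. Of the 957 lower members, 858 came in that way.

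A further fit, called without noted reads below for sequences and families, kept only sequences with an unnoted piRNA cluster name. Scaled to the total of these sequences, it had 226 of 3546 members higher and 147 lower. Sequences with no piRNA cluster name were left out as well, so features and scale both differ from the main fit. That fit was chosen after the data were seen. Over its 7297 sequences 6.30% were higher and 4.07% lower.

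The tested members with the largest negative changes are shown, F4 and F5 with the abundant sequence that each lies next to. All 5 reached 10 RPM in the inputs alone, so the filter fixed their direction, and they are given as values with no test. Capitals in F4, F5 and their relatives mark the base that differs, and positions are counted from 1 at the 5′ end.
F1: agcagatgatggtagaaggttcaga
F2: ttgttctactttggatggtgtttcactgt
F3: tgggcaaatgtatgaacttcttctgcagtc
F4: ttcCcaaggactctctcttcctt
relative of F4: ttcTcaaggactctctcttcctt
F5: ttctcaaggacCctctcttcct
relative of F5: ttctcaaggacTctctcttcct

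F4 carried the substitution T4C and F5 T12C relative to these sequences. F4 stood at 15.7 and 14.0 RPM in the inputs and 0.628 and 0.452 RPM in the IPs, and F5 at 23.2 and 21.4 RPM against 1.08 and 0.633 RPM. From pooled reads their input levels were 27.4 and 25.9 times their IP levels (exact 95% limits 13.9 to 57.8 and 15.1 to 46.3, counting error only). Such limits, here and below, leave out the spread between libraries and test nothing for members picked by their change. Their shared unsubstituted family, in contrast, stood at 2307 and 3481 RPM in the inputs and 2733 and 1887 RPM in the IPs, with overlap between the groups.

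F1, F2 and F3 had no mismatch note and no such relative, and they stopped at a particular 3′ end. F1 stood at 13.9 and 17.7 RPM in the inputs and at 0.0898 and 0.271 RPM in the IPs, 39 reads against 4 although the IPs were 9.12 times as deep. Its input level was 88.9 times its IP level (exact 95% limits from pooled reads 32.1 to 343, counting error only). F2 stood at 16.7 and 20.7 RPM against 0.269 and 0.542 RPM, 46.6 times higher in the inputs (22.6 to 108), and F3, the 30-nt form above, was 44.4 times higher (25.2 to 83.3). They rest on at most 37 reads in an input.

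F1 and another 25-nt form of its family differ in their last base. Both are shown, again with the shared 18 bases in capitals.
ending in a: AGCAGATGATGGTAGAAGgttcaga
ending in g: AGCAGATGATGGTAGAAGgttcagg

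The form ending in g stood at 13.9 and 8.12 RPM in the inputs and 10.5 and 6.33 RPM in the IPs and did not pass (log2 change -0.35 ± 0.44, edgeR adjusted p = 0.472). The family as a whole fell, from 101 and 105 RPM to 37.3 and 34.1 RPM (log2 change -1.53 ± 0.24, edgeR adjusted p = 1.14e-05). It begins with A, not T. F2's family, by contrast, stood at 747 and 792 RPM against 988 and 946 RPM and did not pass.

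The tested members with the largest positive changes had almost no input reads. All 5 reached 10 RPM in the IPs alone, so their direction was fixed by the filter and no test is given. They are printed in lower case throughout, since nothing sets off part of them.
G1: ttgcaaagtagaaatagagac
G2: ttgcaaagtagaaatagagaa
G3: tcatttgaaaagaccctgatg
G4: taggactgcagcaatctagttgtat
G5: ttctaactgttgcttcctgacttg

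G1 had 0 and 1 reads in the inputs and 154 and 205 in the IPs. Its pooled ratio was 39.4 per listed read, with exact 95% limits of 7.02 to 1559 (counting error only). Such limits test nothing for members picked by their change. G4 had 0 and 3 input reads and 201 and 244 IP reads, a ratio of 16.3 (5.53 to 79.1). G2, G3 and G5 had 1 to 2 input reads in all and ratios of 28.3, 26.7 and 14.4, with lower limits of 5.03, 4.76 and 3.95. G3 was named for 137 loci and G5 for 91, each with a mismatch note, so few of their reads count for this cluster.

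G1 and G2 belong to 1 family whose most abundant form is 27 nt. Its leading forms of 24 to 28 nt all passed as higher, but those of 26 and 28 nt lost the call with TMM factors (0.54 and 0.45, edgeR adjusted p = 0.251 and 0.280). The 23-nt form, which reached 10 RPM in the IPs alone, stood at 4.63 and 8.86 RPM against 17.7 and 24.1 RPM.
27 nt: TTGCAAAGTAGAAATAGAgacacagaa

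This form went from 102 and 114 RPM in the inputs to 340 and 311 RPM in the IPs (log2 change 1.59 ± 0.24, edgeR adjusted p = 1.55e-06, and 0.91 with TMM factors). The whole family went from 298 and 347 RPM to 830 and 848 RPM (1.38 ± 0.18, edgeR adjusted p = 8.12e-07). The groups were well apart for both.

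At the level of 5′ families, 4403 of the cluster were tested, 1535 higher and 1035 lower, against 35.3% higher and 24.4% lower over all 10400 families. The medians were 0.54 in both. TMM factors gave 352 higher and 1134 lower members, against 854 and 2748 over all 10400 families. The filter let 718 of the families in through the IPs alone and 830 through the inputs alone, and those had to differ. Of the 1035 lower families 808 came in that way, and of the 1535 higher ones 480. The caution on pooled reads given for sequences holds for relatives of families too. Of the 4403 tested, 1189 lay 1 substitution from a family with at least 10 times their reads. These held all but 8 of the 1035 lower families. The 3 with the largest negative changes were of this kind, relatives of the unsubstituted family of F4 by T4A, T4C and T16A. They reached 10 RPM in the inputs alone, so the filter fixed their direction and no test is given. From pooled reads their input levels were 26.0, 24.6 and 21.1 times their IP levels (exact 95% limits 13.5 to 53.2, 17.7 to 34.8 and 10.7 to 44.0, counting error only). In the fit without noted reads 180 of 2903 families rose and 41 fell, against 6.39% and 1.33% over its 6185 families. These were built only from sequences with an unnoted cluster name.

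The 8 lower families with no such relative were led in abundance by one at 186 and 185 RPM in the inputs and 140 and 107 RPM in the IPs (log2 change -0.59 ± 0.21, edgeR adjusted p = 0.0221), followed by the family of F1. The 3 families with the largest positive changes had 0 to 2 reads in each input and reached 10 RPM in the IPs alone. The first of them is shown by its most abundant form.
H1: TCAGACACAACTTAGGAGctaaaca

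Its family had 0 and 2 input reads and 140 and 190 IP reads, a ratio of 18.1 (exact 95% limits 4.97 to 150, counting error only and no test). The next families, both with a ratio of 14.2 (3.89 to 118), had 2 input reads each. Of the 343 families with a mean of at least 100 RPM, 268 had a log2 change under 1 in size, and of all 875 such families 656 did. With TMM factors these were 323 and 772.

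Some families begin with 10 bases that are the reverse complement of the first 10 bases of another family, the arrangement left when PIWI proteins cut each other's targets in turn. Among 2322 families with at least 10 RPM without noted reads, 125 had a partner at an overlap of exactly 10 bases. At 9 bases 146 had one and at 11 bases 35 did. From 7 to 8 bases the count fell from 379 to 230, so the step from 9 to 10 was the smallest of the steps between 7 and 11 bases. No expected count is given here, and how such overlaps arose was not tested. Some partners were repeated sequences, the most abundant form of one being named for 107 loci. Without a genome the strands and distances of these sequences could not be read.

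The cluster carries a pair of nested names, and they did not order its reads along the interval. The shorter, chr6:110178897-110333441, lies within the longer, yet reads carrying the shorter name alone made up 43.2% and 41.7% of the cluster's input reads and 39.2% and 39.0% of its IP reads. Reads with the longer name alone made up 36.3% and 37.7% against 38.8% and 38.9%. Of 653 unnoted single-locus families with at least 1000 reads, 566 had 90% of their reads under a single naming. Names also changed within a family: of unnoted single-locus members whose form 1 base shorter was listed, 1.35% had that form named only for another cluster, and 2.54% of the reads lay on such members.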

How the data were processed

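Small RNA was sequenced on a NextSeq 500 with 75-base single-end reads, per the labels' protocols. Each library has a table that the authors deposited, in which each distinct sequence has a count of reads and the names of the features it matched; by their names these are unitas annotation matrices. Not given in the sources used here: the aligner, its settings and the genome build. A bracketed note after a name was read as a mismatch. Counts were used as deposited: RPM scales them to the total of listed reads, reads of several separate loci were shared equally, and sums were rounded. Listed reads ran from 1079364 to 11138905, so levels of the inputs are the less precise.

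TDRKH IP was compared with input with edgeR 4.0.16 (quasi-likelihood, R 4.3.3) on all features, with Benjamini-Hochberg adjustment and 0.05 as the threshold; sequences and 5′ families needed 10 RPM in 2 libraries. Shares were compared with exact permutation tests. Named were the 5 most abundant sequences of each group, the 5 with the largest change in each direction, the 5 most abundant families and the 3 with the largest change in each direction, both libraries of a group on 1 side; other forms and families, and the counts of relatives, last bases and overlaps, were chosen after values were seen. Alternatives were DESeq2 1.42.0, TMM, other library totals, filters, IPs thinned to 1079364 reads, a replicate block and each library left out. The fits were tested on simulated data. Members and lists were chosen with earlier results of these data known. A genome was not used here. Some sequences are not reported here.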

Additional observations from a re-analysis of the deposited data

How the results depend on the processing

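The change of the cluster's reads turned with scaling: -0.28 with DESeq2, -0.27 with TMM factors, -0.0407 per piRNA cluster read and -0.16 with distinct sequences counted once. It was 0.56 with noted reads taken out of the loci but kept in the library size, where the median locus stood at 0.65. This value therefore follows in part from the lower share of noted reads in the IPs. With each library left out the change was 0.08 to 0.11. Over all 11786 sequences tested, of which 5018 were members, 198 were higher with DESeq2 and 667 with TMM factors. At 1 RPM, 9827 of all 94522 sequences were higher and 18497 lower, with 39289 members among those tested. Member sequences called higher and lower, 2158 and 957, became 86 higher with DESeq2, 281 with TMM factors, 4249 higher and 7167 lower with at least 1 RPM, and 226 and 147 without noted reads (chosen after seeing the data). Leaving out each library gave 508 to 2101 higher, lowest without the second IP (790 without the first), and 824 to 941 lower. Over all 10400 families tested, 4403 of them of the cluster, 383 were higher with DESeq2 and 854 with TMM factors. At 1 RPM, 12209 of all 59692 families were lower, with 22018 of the cluster among those tested. Families of the cluster called higher, 1535, became 155 with DESeq2, 352 with TMM factors and 180 without noted reads. Those called lower, 1035, became 4169 with at least 1 RPM and 41 without noted reads. Leaving out each library gave 487 to 1629 higher, lowest without the second IP (686 without the first), and 953 to 1045 lower. Over all 57 lengths by origin, 15 rose and 24 fell per cluster read, and 13 and 25 per piRNA cluster read. With distinct sequences once, 16 rose and 23 fell of 55, and TMM factors gave 24 lower of 57. Of the cluster's read lengths, 6 rose per cluster read, 6 per piRNA cluster read and 5 with distinct sequences once, and 4, 5 and 5 fell. TMM factors gave 4 lower. Leaving out each library gave 6 to 10 higher, 6 without the first input, and 0 to 3 lower, 0 without either IP. The cause was not tested for any of these.

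The difference in first T, IP minus input, turned to -9.89 points with distinct sequences once and to -1.56 without noted reads, and leaving out each library gave -0.15 to 0.64, with -0.03 without the first input. That in A at position 10 ranged from -0.62 to 0.19 points (0.09 without the first input) with each library left out, and was -2.53 with distinct sequences once and -0.69 without noted reads; that in reads shared with other loci ranged from -0.14 to 0.0135. For the classes of 18 to 22, 23 to 27 and 28 to 36 nt the ranges were 2.11 to 3.04, -4.05 to -3.03 and 0.744 to 1.19 points (6.99, -7.81 and 0.818 with distinct sequences once, and 0.21 for the last, with overlap, without noted reads), for noted reads -28.5 to -19.7 points and for mean length -0.17 to -0.09 nt. Against other clusters, first T turned to -2.96 points with distinct sequences once and was 0.0127 without the 10 most abundant sequences; on these settings 18 to 22 nt stood at -0.23 and -1.68 and mean length at 0.0602 and 0.0833 nt. Leaving out each library gave 0.919 to 1.05 points for first T, -7.81 to -7.00 for A at position 10, -2.63 to -2.42 for 18 to 22 nt and 0.11 to 0.13 nt for mean length. Families shorter in the IP numbered 177 with at least 100 reads and 708 to 976 with each library left out, and longer ones 33 and 342 to 577: a family then needs to be apart in fewer libraries.

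Among single features, P6 turned to -0.59 with DESeq2, -0.61 with TMM factors, -0.0225 per cluster read, -0.49 without noted reads and -0.0632 per piRNA cluster read, and ranged from -0.0152 (without the first IP) to 0.151 with each IP left out. P7 turned to -0.21, -0.24 and, without noted reads, -0.12, and was called higher without the second input (0.61), as was its family (0.36). Family R1 turned to -0.10, -0.12 and -0.0497 on the same 3 settings, the family of P7 to -0.28 and -0.31 on the first 2, and that of P3 to -0.28, -0.30 and -0.41.

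Replicate numbers do not pair the libraries by the labels, and the deviations of same-numbered libraries correlated at 0.0665 over tested members, with only 2 pairs. With a replicate block 1933 sequences were higher and 942 lower, 1390 families were higher and 1025 lower, 10 lengths rose and 2 fell, and the cluster's change stayed at 0.09. The lower depth of the inputs limits what can be said of sequences near 10 RPM.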
